A study of Danio rerio with 10 samples.

Results

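Solute carriers for ions, sugars, metals, phosphate, monocarboxylates, vitamins and organic anions and cations were compared between dye-positive and dye-negative cells of the adult zebrafish pituitary. The set was taken from the gene names of the deposited count table: names starting with slc and a digit, or with slco, without the families for amino acids, neurotransmitters, peptides and mitochondrial substrates and without slc4a1a, the anion exchanger of red cells. It holds 183 of 14781 genes, and another 112 of the 295 slc and slco names lie outside the rule. Of the 183, 9 had no count in any library, 65 had counts too low to be tested, and 109 were tested.

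The study injected male zebrafish of the TL strain, 12 months old, with 10 µL of β-Ala-Lys-Nε-AMCA at 4.6 mM, a dipeptide that carries a blue coumarin dye. Pituitaries were collected 3 h later as 5 pools of 7, dissociated, and sorted in 2 FACS experiments. AMCA-positive libraries (n = 5) hold cells inside the dye gate, which the labels name pituicytes, the astroglia of the neurohypophysis. AMCA-negative libraries (n = 5) hold cells outside it, named non-pituicytes. Fish of both groups had received the dye, and plate 1 carried 2 libraries of either group, plate 2 carried 3. Below, positive and negative replicates 1 and 2 are those of plate 1, and 5 values in a row are replicates 1 to 5.

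Solute carriers move small molecules across membranes, either down a gradient, in exchange for another solute, or driven by the sodium or proton gradient that ATP-driven pumps maintain. Many are plasma membrane proteins, while others load the Golgi, lysosomes or vesicles. Astroglia are known for lactate, bicarbonate and potassium handling, and pituicytes surround the neurosecretory endings and the capillaries of the posterior pituitary.

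Libraries held between 4250948 and 6068781 counts, and the 2 groups overlapped in depth. AMCA-positive libraries held more detected genes, between 11308 and 11817 against 7079 and 9056, and more of the 183 carriers, between 128 and 141 against 70 and 106. The sorted groups differed in the cell types whose markers they carried. Of the tested astroglial markers 15 of 19 were higher in AMCA-positive cells and 1, aqp1a.1, was lower. The summed share of counts of the astroglial list was 0.707 to 1.87% against 0.157 to 0.296%. On either side 1 gene held most of it. In AMCA-positive libraries cyp26b1 had a mean of 6955 CPM, where the list summed to 11710. In AMCA-negative libraries aqp1a.1 had 1925 CPM, where the list summed to 2586. The astroglial genes fabp7b, slc1a3a and sox9b had no count in any AMCA-negative library. Leukocyte markers moved the same way, with 15 of 20 higher, 1 lower, and 1.78 to 4.17% against 0.124 to 0.431% of counts, as did mural and fibroblast markers (8 of 10 higher, 0.0612 to 0.14% against 0.000635 to 0.016%, with pdgfrb and fbln1 at 0 in both groups) and epithelial markers (9 of 12 higher, 0.609 to 0.837% against 0.00504 to 0.0441%, with krt5 at 0 in the negative group). Endothelial markers were higher for 5 of 13, with overlapping shares of 0.013 to 0.0232% and 0.000725 to 0.0217%. Red cell markers were lower for 14 of 16, while 1, urod, was higher. They took 0.0474 to 0.143% of AMCA-positive against 22.6 to 40.4% of AMCA-negative counts. The summed share of endocrine markers overlapped, at 1.03 to 3.62% against 0.213 to 4.6%. Of 14 tested, 2 were higher and 0 lower, and the 14.3% higher was close to the 16.2% of all tested genes. The 2 were the proopiomelanocortin genes pomca, at a mean of 9881 against 15.7 CPM, and pomcb, at 2.51 against 0.0398 CPM. Neuronal markers, with 0 of 8 called, overlapped at 0.0114 to 0.0179% against 0.00391 to 0.0188%. The part of these cell types in the carrier differences was not tested, and this holds for every result below. In bulk samples fewer cells of a type and less RNA per cell cannot be told apart.

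Across all tested carriers, 19 were higher and 6 lower in AMCA-positive cells by edgeR's quasi-likelihood F test, with p-values adjusted by Benjamini-Hochberg over all 10468 genes tested and 0.05 as threshold. That is 17.4% higher, where 16.2% of all tested genes were higher, and 5.5% lower, where 6.56% of all tested genes were lower, so both shares were close to the background. Calls per family and per list, above and below, are to be read beside these shares of all tested genes. For calls by other tests, the DESeq2 Wald test had 2927 genes higher and 920 lower of 11083. Limma-voom had 2524 higher and 765 lower of 10468, against 1693 and 687 in edgeR. Of the 19 carriers, 16 had every AMCA-positive library above every AMCA-negative one (14.7% of tested carriers, against 13.9% of all tested genes), and 2 of the 6 had every AMCA-positive library below (1.83% against 4.9%). By the authors' deposited table, of 126 carriers with an adjusted p 31 were higher and 7 were lower, 24.6% and 5.56%, where that table has 22.3% and 8.31% of all its genes; the 19 and the 6 are among them. Leaving out negative replicates 3 and 4, which had the fewest detected genes, an alternative chosen after seeing the data, gave 18 higher and 3 lower, with 16 of the 25 calls kept. Over all genes that fit called 1506 higher and 669 lower of 11020. Of the 84 tested carriers with no call, 62 (73.8%) had a positive fold change, as did 61% of all genes tested without a call.

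**Figure D1:**
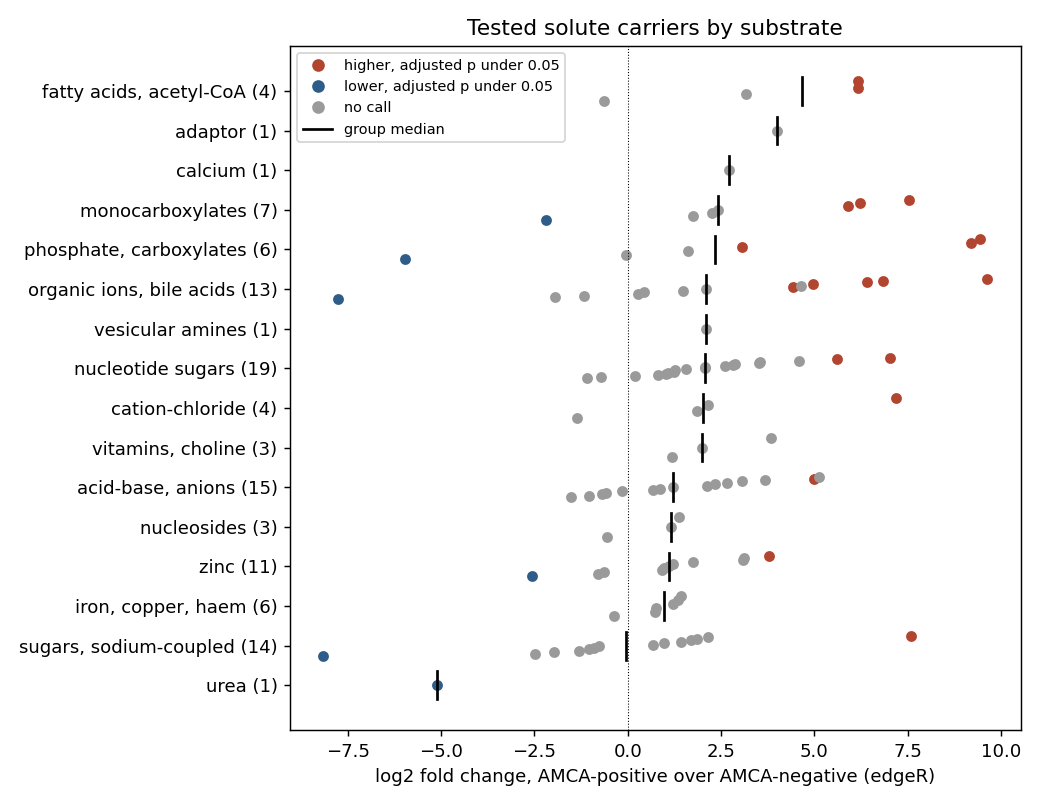
Log2 fold change of each of the 109 tested carriers (points), AMCA-positive over AMCA-negative from the edgeR fit on 5 against 5 libraries, by substrate family with the number tested in parentheses; red points were higher, blue points lower and grey points not called at an adjusted p of 0.05, and black bars are group medians. The 19 higher carriers are spread over 9 families, and the 6 lower ones over 6.

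Taken as 1 quantity, the carriers' share of a library's counts was 0.427 to 0.86% in AMCA-positive and 0.171 to 0.245% in AMCA-negative libraries, with no overlap. A single gene, slc16a9a, made up 24.4 to 59.5% of the carrier counts in AMCA-positive libraries and 0.027 to 11% in AMCA-negative libraries. In the AMCA-negative libraries slc20a1a made up 23.3 to 36.3%, against 0.0146 to 0.707% in AMCA-positive libraries. Summed CPM of the carriers (counts scaled to TMM-adjusted library size) was 3723 to 6945 against 1884 to 2803, and without slc16a9a it was 2093 to 2814 against 1881 to 2765, which overlap. Without both slc16a9a and slc20a1a it was 2065 to 2805 against 1369 to 2055, a narrow gap between 2055 and 2065 CPM. Both genes were chosen for removal from these same values, and removing slc20a1a lowers mainly the AMCA-negative sums. No conclusion is drawn from that gap.

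**Figure D2:**
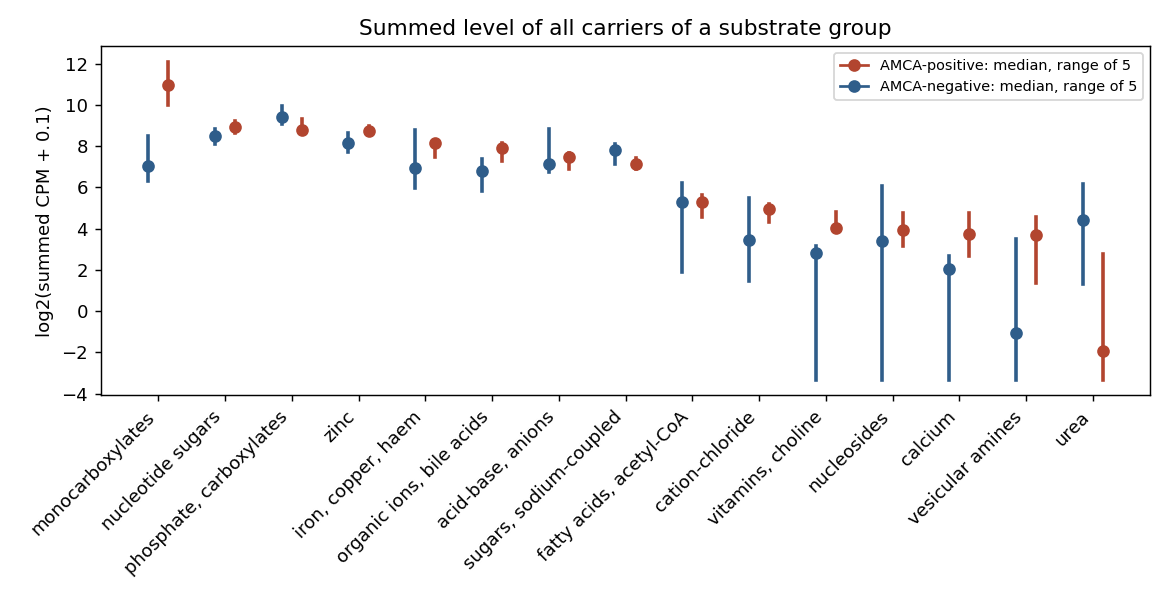
Summed CPM of all carriers of a substrate family, on the scale log2(CPM + 0.1), as the median (point) and range (line) of 5 libraries in each group. Monocarboxylate carriers, at 1033 to 4346 CPM in AMCA-positive and 78.01 to 363.3 CPM in AMCA-negative libraries, zinc carriers and vitamin and choline carriers do not overlap, and the other 12 of 15 families do. Without slc16a9a the monocarboxylate carriers overlap, at 86.03 to 212.3 against 74.17 to 115.7 CPM. Zinc carriers lie at 409.8 to 498.4 against 211.4 to 394.8 CPM, and vitamin and choline carriers at 14.2 to 27.74 against 0 to 8.767 CPM. The median log2 fold change of all tested genes was 0.691. How often other groups of genes fail to overlap was not tested.

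Carriers of phosphate, sulfate and di- and tricarboxylates gave changes in both directions. Of 6 tested, 3 rose and 1 fell, and 2 of them that share a mouse counterpart went opposite ways. slc20a1a and slc20a1b both encode sodium-phosphate cotransporters matched in the deposited table to mouse Slc20a1, the PiT-1 carrier that takes up inorganic phosphate. slc20a1a was counted at 0.755, 28.1, 9.29, 10.7 and 8.03 CPM in AMCA-positive libraries and at 626, 972, 665, 803 and 439.8 CPM in AMCA-negative libraries. It was thus low in all 5 positive and high in all 5 negative libraries, and the log2 fold change was -5.97 ± 0.76 (mean and SE of the fit on 5 libraries a group; edgeR adjusted p = 0.000377). slc20a1b had 375, 349, 587, 478 and 304 CPM in the positive and 49.5, 12.5, 5.14, 105 and 94.8 CPM in the negative libraries, again with no overlap. Its log2 fold change was 3.06 ± 0.69 (edgeR adjusted p = 0.00932). Fitted on each plate alone the pair had -5.94 and 3.30 on plate 1 and -6.08 and 2.74 on plate 2. With no overlap between the groups, the direction could not differ between plates. Reads that fit both copies could be divided between them in ways the sources used here do not state. Of 20 mouse genes that 2 of the carriers share, 9 had both members tested, and Slc20a1 was the 1 with calls in opposite directions.

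slc20a2, the PiT-2 phosphate carrier, was found at 12.4, 14.5, 9.88, 27.1 and 15.3 CPM in the positive libraries and was absent from the counts of all 5 negative ones. Against a floor of 3 counts over the negative group it was at least 119-fold higher (edgeR adjusted p = 0.00542). slc13a5a, whose mammalian counterpart takes up citrate with sodium, showed 44.6, 24.9, 30.8, 39.3 and 45.5 CPM in the positive libraries, while a single count, in negative replicate 2, was found in the negative group. The ratio was 837 (95% counting interval 150 to 33100), with an edgeR adjusted p = 0.000598. The sodium-dicarboxylate carrier slc13a3 was too low to test, with 12 counts in the positive and 1 in the negative libraries.

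**Figure D3:**
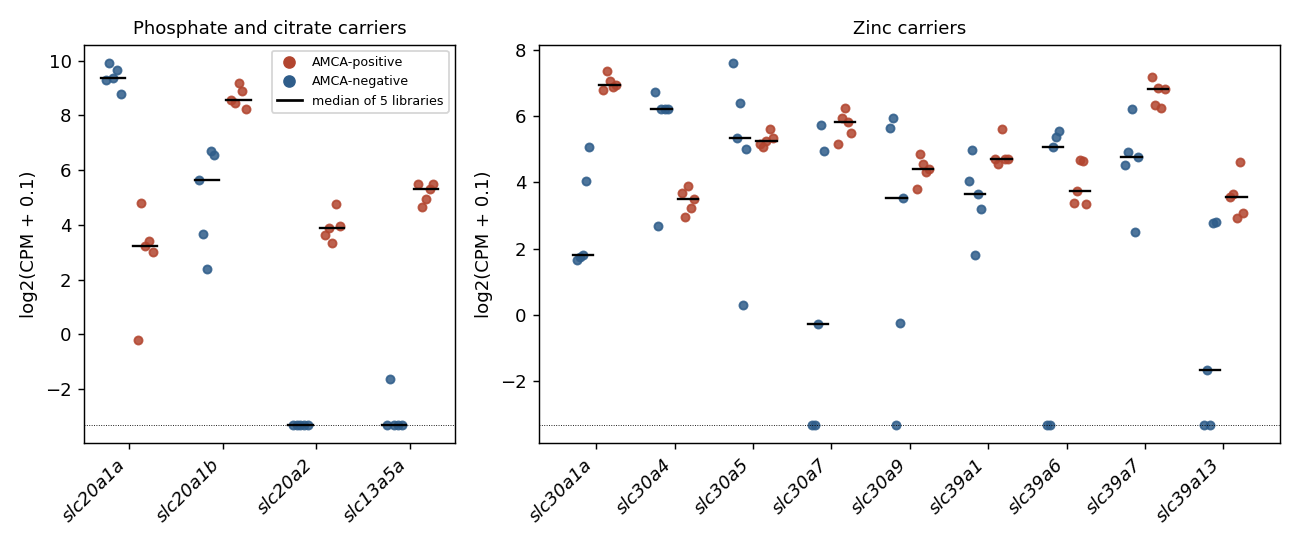
Level of phosphate and citrate carriers (left) and of 9 of the 11 tested zinc carriers (right) in each library, on the scale log2(CPM + 0.1); points are libraries, black bars medians of 5, and the dotted line is a count of 0. For slc20a1a every AMCA-negative library lies above every AMCA-positive one, and for slc20a1b, slc20a2, slc13a5a and slc30a1a every AMCA-positive library lies above.

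Monocarboxylate transporters of the slc16 family held the carrier with the most counts in AMCA-positive cells, slc16a9a, and rose for 3 of 7 tested members, with 1 lower. slc16a9a, whose human counterpart MCT9 carries carnitine and creatine, reached 2698, 1876, 909, 4133 and 1823 CPM in AMCA-positive libraries. In AMCA-negative libraries it had 289, 38.8, 0.734, 41.9 and 3.78 CPM, so negative replicate 1 lay far above the other 4, and all 5 lay below every positive library. The log2 fold change was 5.91 ± 1.28 (edgeR adjusted p = 0.00767); under limma-voom with quality weights it did not pass, at adjusted p = 0.135. The other copy, slc16a9b, had 6.95, 6.28, 15, 38.4 and 23.6 against 10.1, 60.3, 0, 0.376 and 5.18 CPM and no call (log2 fold change 1.74 ± 2.12, edgeR adjusted p = 0.642). On plate 1 alone the log2 fold change of slc16a9b was -2.54, and on plate 2 alone it was 3.78. The difference between the 2 copies was not tested.

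slc16a1, which encodes the lactate and pyruvate carrier MCT1, had 6.04, 12.9, 16.2, 13.2 and 13.8 CPM in AMCA-positive libraries and a single count, in negative replicate 1, across the negative group. This gave a positive over negative ratio of 281 (95% counting interval 50.1 to 11120) and an edgeR adjusted p = 0.00419. slc16a12b, named here after its values were seen and matched to a creatine carrier of mammals, had 10.3, 7.6, 6.78, 37.6 and 14.5 CPM in the positive libraries and 2.53, 0, 0, 0 and 0 CPM in the negative ones. Its log2 fold change was 6.22 ± 2.05 with an edgeR adjusted p = 0.0497, and the call was lost without negative replicates 2, 3, 4 or 5 or without positive replicates 1, 3, 4 or 5 (edgeR adjusted p from 0.0546 to 0.119).

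slc16a10 moved the other way. The mammalian protein carries aromatic amino acids and thyroid hormone. AMCA-positive libraries had 11, 4.46, 22.1, 12.5 and 21.6 CPM and AMCA-negative libraries 56.2, 42.1, 55.3, 87.9 and 64.1 CPM, so every positive library was below every negative one. The log2 fold change was -2.19 ± 0.58 (edgeR adjusted p = 0.0193), and it did not pass without positive replicates 2 or 4 (edgeR adjusted p from 0.0543 to 0.0581). Nor did it pass with neighbouring wells taken as a block (edgeR adjusted p = 0.0816).

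The lactate exporter slc16a3 (MCT4) had 8.91, 6.93, 20.1, 66.8 and 14.3 CPM against 4.78, 1.53, 0.489, 0.376 and 10.6 CPM and did not pass the test (log2 fold change 2.43 ± 1.20, edgeR adjusted p = 0.191), though the DESeq2 Wald test called it (adjusted p = 0.024), and its groups overlapped. For slc16a8 every positive library, at 37.6 to 58.2 CPM, lay above every negative one, at 0 to 35.9 CPM. It had no edgeR call (log2 fold change 2.27 ± 1.23, adjusted p = 0.236), but limma-voom called it higher (adjusted p = 0.0389). slco1c1, a thyroid hormone carrier of brain vessels and glia in mammals, was too low to test, at 0.453, 0.165, 0.147, 0.457 and 0.157 CPM against 0.281, 39.9, 0, 0 and 0 CPM, so that negative replicate 2 held nearly all its counts.

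**Figure D4:**
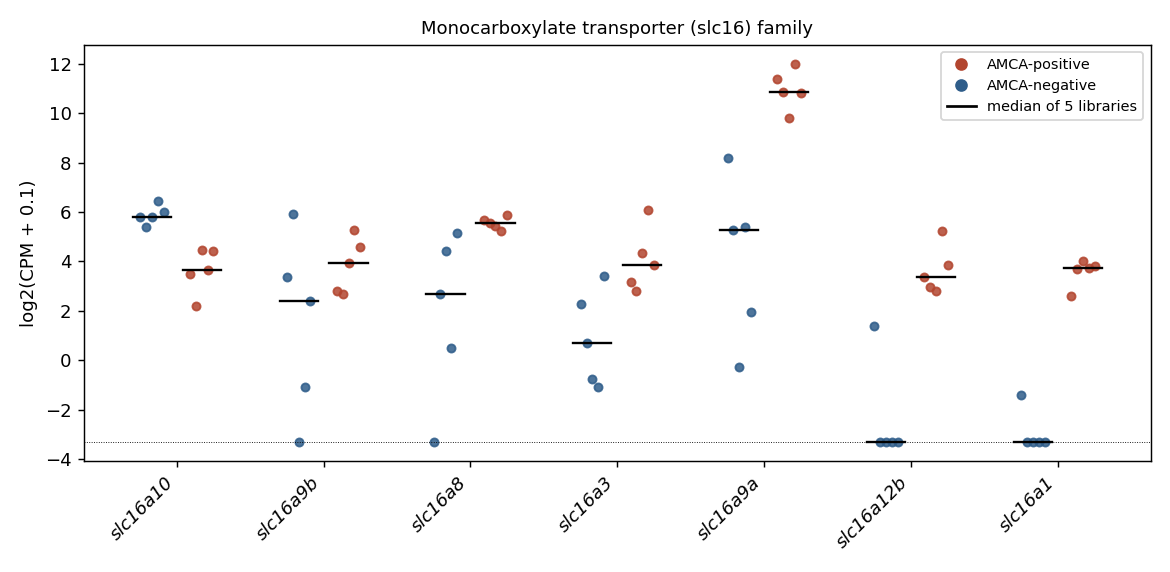
Level of the 7 tested monocarboxylate transporters, ordered by fold change, in each library on the scale log2(CPM + 0.1); points are libraries, black bars medians of 5, and the dotted line is a count of 0. slc16a9a spans 909 to 4133 CPM in AMCA-positive libraries (not corrected for transcript length), and slc16a10 is the 1 member whose AMCA-negative libraries all lie above the AMCA-positive ones.

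Carriers of organic anions, organic cations and bile acids rose for 5 of 13 tested members and fell for 1, with 10 of the 13 fold changes positive, where 63.3% of all tested genes had a positive sign. slco2b1, an organic anion carrier that takes up steroid sulfates in mammals, had 57.9, 28.9, 116, 111 and 133 CPM in AMCA-positive libraries and 0, 1.1, 0.489, 1.5 and 1.79 CPM in AMCA-negative libraries. Every positive library was above 28 CPM and every negative one below 2 CPM, with a log2 fold change of 6.41 ± 0.85 (edgeR adjusted p = 0.000512). Both multidrug and toxin extrusion carriers, which exchange organic cations for protons, were higher. slc47a1 had 14.3, 10.4, 1.77, 10.2 and 0.629 CPM against a single count in negative replicate 1, a ratio of 168 (95% counting interval 29.9 to 6659) with edgeR adjusted p = 0.00664. slc47a2 had 11, 7.6, 4.13, 5.79 and 12.1 CPM against 0, 1.53, 0.244, 0 and 0 CPM, with a log2 fold change of 4.98 ± 1.46 and an edgeR adjusted p = 0.031. The call for slc47a2 was lost without negative replicate 3 or without positive replicates 1, 3, 4 or 5 (edgeR adjusted p from 0.0507 to 0.0578). It was also lost with neighbouring wells as a block (edgeR adjusted p = 0.0542).

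slc51a encodes a subunit of a steroid and bile acid exporter. It reached 11.9, 16.5, 3.39, 57.2 and 1.1 CPM in the positive group and had none in the negative one, with positive replicate 4 more than 3 times above the next. It was at least 136-fold higher against the floor (edgeR adjusted p = 0.0157). The orphan carrier slc22a23 was low, at 1.06, 2.48, 4.72, 0.761 and 3.31 CPM against 0.281, 0, 0, 0.188 and 0 CPM, a ratio of 27.9 (95% counting interval 7.47 to 234) with an edgeR adjusted p = 0.0248, and lost its call without negative replicates 2 or 3 or without positive replicate 2 (edgeR adjusted p from 0.0541 to 0.063) and under limma-voom (adjusted p = 0.0616). With neighbouring wells as a block slc22a23 did not pass either (edgeR adjusted p = 0.0812).

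slc10a4 belongs to the bile acid family, though in rodents it is found in vesicles of monoaminergic and cholinergic neurons and mast cells. It had 24.7, 15.8, 37.4, 30.8 and 0 CPM in AMCA-negative libraries and 0, 0, 0, 0.457 and 0 CPM in AMCA-positive libraries, so negative replicate 5 did not share the high level of the other 4. It was lower in AMCA-positive cells by a ratio of 228 (95% counting interval 77.6 to 1111) with edgeR adjusted p = 0.0153. slc47a2, slc51a, slc22a23 and slc10a4 were named after their values were seen. Among members without a call, the prostaglandin carrier slco2a1 had 6.65, 17.7, 14.4, 18.4 and 49.6 CPM against 0, 6.79, 0.489, 0 and 0.398 CPM (log2 fold change 4.63 ± 1.81, edgeR adjusted p = 0.0945). It passed without negative replicate 2 (edgeR adjusted p = 0.00935), on plate 2 alone (0.0292), under the DESeq2 Wald test (0.000714) and under limma-voom (0.015). Negative replicate 2 held its highest AMCA-negative level and is not on plate 2. Leaving that replicate out, or taking plate 2 alone, therefore favours a pass.

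**Figure D5:**
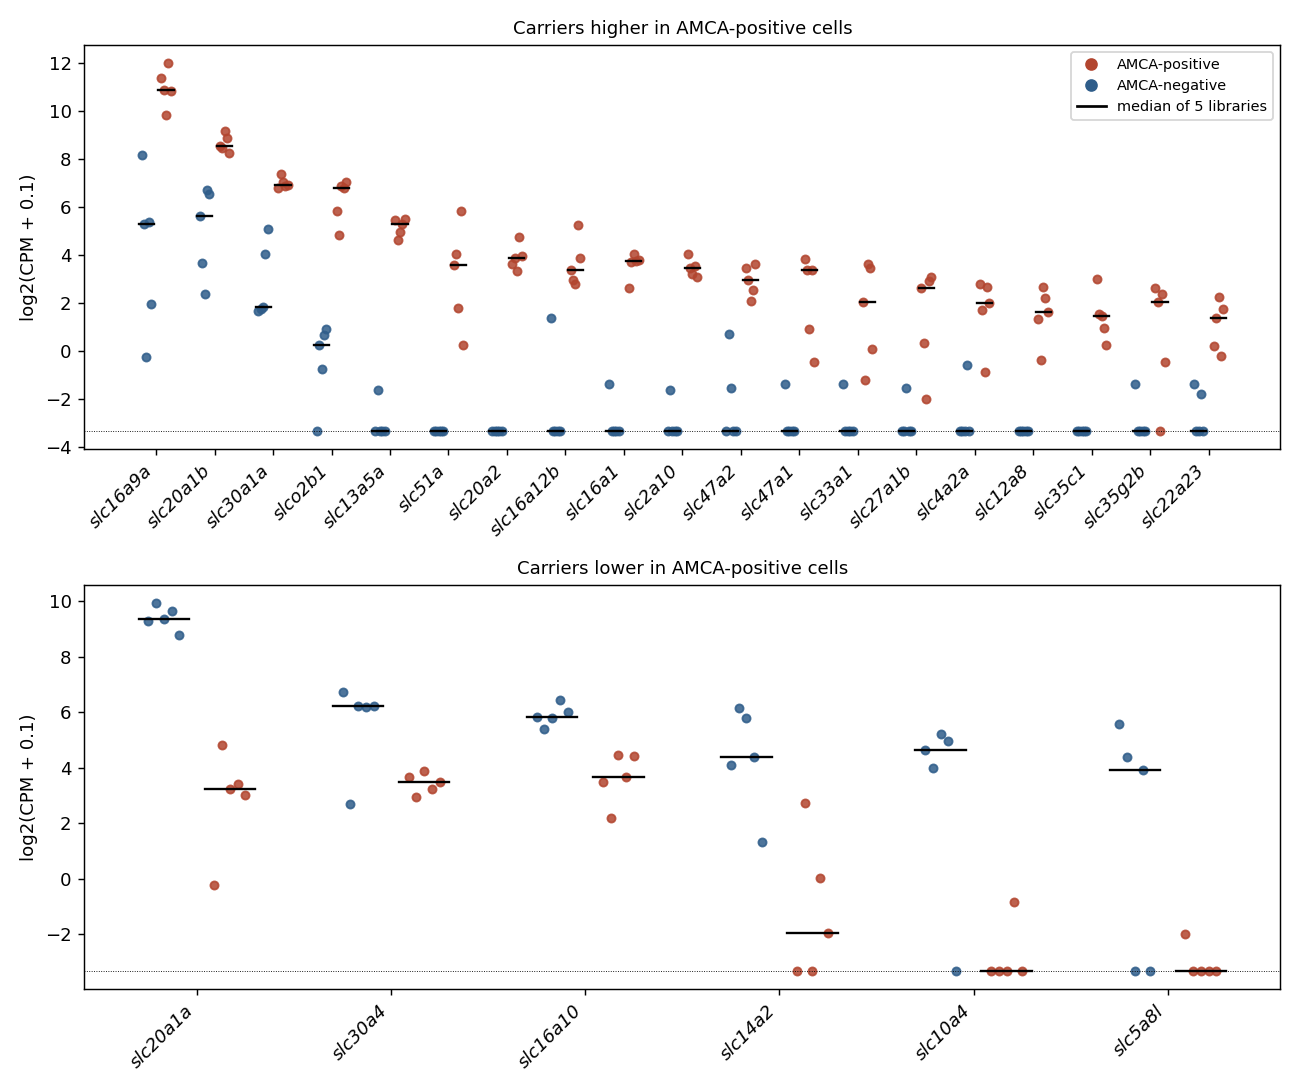
Level of the 19 carriers higher (top) and the 6 lower (bottom) in AMCA-positive cells in each library, on the scale log2(CPM + 0.1), ordered by the mean of the higher group; points are libraries, black bars medians of 5, and the dotted line is a count of 0. For 13 of the 19 higher carriers the whole AMCA-negative group has 3 counts or fewer. Such carriers could enter the test only through their AMCA-positive counts. The matching share of all higher genes was not computed, so this number is not a trait of the carriers.

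Of 11 tested zinc carriers 1 rose, 1 fell and 9 had no call by edgeR; among the 9 the DESeq2 Wald test called slc30a7, slc39a1, slc39a13 and slc39a7 higher, and limma-voom slc30a7 and slc39a7. slc30a1a, the exporter that moves zinc out of the cell, had 111, 165, 133, 118 and 122 CPM in AMCA-positive and 3.09, 3.29, 3.42, 16.3 and 33.7 CPM in AMCA-negative libraries. Positive libraries lay within a narrow range and above all negative ones, with a log2 fold change of 3.79 ± 0.76 (edgeR adjusted p = 0.00542). slc30a4, which loads zinc into vesicles in mammals, had 12.7, 7.6, 14.8, 9.29 and 11.2 CPM in the positive and 106, 6.36, 74.1, 73.6 and 73.9 CPM in the negative libraries, so that negative replicate 2 lay below every positive library and the other 4 lay above. Its log2 fold change was -2.58 ± 0.73 (edgeR adjusted p = 0.0264), and the call was lost without negative replicate 1 or without positive replicates 1, 2, 3, 4 or 5 (edgeR adjusted p from 0.0522 to 0.132). It was also lost with neighbouring wells as a block (edgeR adjusted p = 0.107).

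slc39a7, which releases zinc from the endoplasmic reticulum and Golgi, had every positive library, at 146, 81.4, 115, 75.7 and 114 CPM, above every negative one, at 22.8, 30, 74.1, 5.63 and 27.3 CPM, but did not pass (log2 fold change 1.75 ± 0.61, edgeR adjusted p = 0.0619). It passed without negative replicate 3 (edgeR adjusted p = 0.018), under the DESeq2 Wald test (0.0163) and under limma-voom (0.0426). Negative replicate 3 held its highest AMCA-negative level, so leaving that replicate out favours a pass. Among the uncalled zinc carriers, slc30a7 had 35.6, 61.1, 76.2, 56.3 and 44.7 CPM against 0, 0, 0.734, 53.1 and 30.7 CPM, so negative replicate 4 lay within the positive range and 3 negative libraries were at or near 0. A list of metal-handling genes, not restricted to zinc, had 5 tested: mt2, mtf1, atp7a, atox1 and hephl1a. It gave 1 call: the metallothionein mt2 was lower, at 6.5, 4.29, 8.11, 7.61 and 9.44 CPM against 62.4, 12.7, 58, 43.9 and 248 CPM (log2 fold change -3.40 ± 0.73, edgeR adjusted p = 0.00754).

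Iron, copper and haem carriers gave 0 calls among 6 tested by edgeR, 0 at an unadjusted p under 0.05 and 0 under limma-voom; the DESeq2 Wald test called slc11a2 and the otherwise untested slc46a1. The iron exporter slc40a1 (ferroportin) had 51.4, 19.5, 132, 85.6 and 77.1 CPM in AMCA-positive and 37.4, 4.6, 167, 7.32 and 5.18 CPM in AMCA-negative libraries, where replicate 3 held the highest level of all 10 libraries (log2 fold change 0.73 ± 0.93, edgeR adjusted p = 0.657). Without negative replicates 1 and 3 together, an alternative chosen after seeing the data, slc40a1 passed (edgeR adjusted p = 0.00495). Those replicates held its highest AMCA-negative levels, so leaving them out favours a pass and no conclusion is drawn from it. slc11a2 (DMT1), which brings in ferrous iron, had 40.9, 13.7, 21.4, 31.7 and 37 against 3.37, 8.55, 21, 19.1 and 11.3 CPM and slc31a1, the copper importer CTR1, 91.8, 61.4, 64.9, 76.4 and 56.2 against 29.2, 30.7, 67, 18.6 and 6.57 CPM. Their log2 fold changes were 1.35 ± 0.78 (edgeR adjusted p = 0.271) and 1.20 ± 0.61 (edgeR adjusted p = 0.206).

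Sugar and sodium-coupled carriers, 31 genes of the slc2, slc5, slc37, slc45 and slc50 families, had 14 tested, 1 higher and 1 lower, and a median log2 fold change of -0.04 beside 0.69 over all genes tested. slc2a10 (GLUT10), which carries glucose and dehydroascorbate in mammals, had 16.6, 11.1, 9.29, 11.6 and 8.5 CPM in AMCA-positive libraries and a single count in the negative group. The ratio was 258 (95% counting interval 46 to 10210) with edgeR adjusted p = 0.00257. slc5a8l is named after a sodium-coupled carrier of monocarboxylates, so its family and not its substrate places it here. It had 47.5, 20.6, 0, 15.2 and 0 CPM in AMCA-negative libraries and a single count in the positive group, lower in AMCA-positive cells by a ratio of 494 (95% counting interval 88 to 19560) with edgeR adjusted p = 0.0152. Negative replicates 3 and 5 had no count, and the call was lost without positive replicate 1 (edgeR adjusted p = 0.0763). The barrier glucose carrier slc2a1a (GLUT1) had 23 counts, all in positive replicate 1, and was not tested. slc5a3a, of the myo-inositol carriers, had 3 counts in all, in negative replicates 1 and 2. slc37a2 had no edgeR call (adjusted p = 0.165), though the DESeq2 Wald test called it higher (adjusted p = 0.0242).

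Acid-base carriers and anion exchangers had 1 higher member among 15 tested. slc4a2a, a chloride-bicarbonate exchanger, had 6.8, 3.14, 0.442, 6.24 and 3.94 CPM in AMCA-positive libraries against 0, 0, 0, 0.563 and 0 CPM, a ratio of 30.9 (95% counting interval 10.3 to 152) with edgeR adjusted p = 0.0326. Positive replicate 3 lay below negative replicate 4, and the call was lost without negative replicates 1, 2 or 3 or without positive replicates 1, 2, 4 or 5 (edgeR adjusted p from 0.0551 to 0.0765). Its copy slc4a2b had 8.76, 4.95, 6.05, 8.98 and 5.04 CPM against 1.69, 1.97, 0, 0.563 and 0 CPM, every positive library above every negative one, and did not pass in edgeR (log2 fold change 3.67 ± 1.32, adjusted p = 0.0687), though it did in the DESeq2 Wald test (0.000117) and limma-voom (0.0237). slc4a4a, a sodium-bicarbonate cotransporter known from astroglia, had 11.6, 6.77, 16.1, 49.8 and 39.2 CPM against 0.281, 42.7, 0, 0 and 6.77 CPM. Negative replicate 2 was as high as the positive libraries, and edgeR made no call (log2 fold change 2.12 ± 2.23, adjusted p = 0.579), while limma-voom, which weights libraries by quality, called it higher (adjusted p = 0.0467). slc26a5, one of the 5 carriers with the highest mean CPM, had 23.1, 29.9, 45.1, 48.6 and 45.2 CPM against 11.5, 150.1, 242, 71.4 and 73.1 CPM (log2 fold change -1.53 ± 0.63, edgeR adjusted p = 0.116, and 0.0217 without negative replicate 1); its mammalian counterpart is the motor protein prestin of cochlear hair cells. For slc26a5 negative replicate 1 held the lowest AMCA-negative level, so leaving it out favours a pass. slc9a8 had 9.97, 7.6, 12.4, 8.37 and 18.4 CPM against 0.281, 17.1, 0, 0 and 0 CPM. It had no edgeR call (log2 fold change 5.11 ± 2.65, adjusted p = 0.215; -0.10 on plate 1 alone). It passed in the DESeq2 Wald test (0.00107), in limma-voom (0.0233) and on plate 2 alone (edgeR adjusted p = 0.0255). Negative replicate 2 held nearly all its AMCA-negative level and is not on plate 2, so a pass there is favoured. The scaffold slc9a3r1 (NHERF1), which binds a sodium-proton exchanger, had 70.2, 52.7, 75.8, 74 and 42.3 CPM against 104, 41.9, 0.734, 0 and 1.79 CPM and an edgeR adjusted p = 0.146, but passed in the DESeq2 Wald test (0.00141), in limma-voom (0.0322) and on plate 2 alone (0.0255). Its high negative libraries, replicates 1 and 2, are not on plate 2, so a pass there is favoured.

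Genes of the carbonic anhydrase family, listed because the active enzymes work beside bicarbonate carriers, had 1 higher and 1 lower of 7 tested. ca8, whose mammalian counterpart is a related protein without the enzyme's activity, was higher, at 76, 26.2, 31.3, 40.6 and 38.7 CPM against 3 counts in negative replicate 4, a ratio of 322 (95% counting interval 110 to 1564) with edgeR adjusted p = 0.00242. cahz, a carbonic anhydrase of zebrafish blood cells, was counted 61659, 74089, 191605, 91960 and 120167 times in AMCA-negative and 82, 332, 711, 367 and 1041 times in AMCA-positive libraries, a log2 fold change of -8.43 ± 0.59 (edgeR adjusted p = 4.76e-06), beside the red cell marker shares given above.

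Cation-chloride cotransporters had 1 higher of 4 tested. slc12a8, a member of the family whose substrate is not settled, showed 2.42, 0.66, 6.34, 4.57 and 2.99 CPM in the positive group and 0 counts in the negative one, and was at least 26-fold higher (edgeR adjusted p = 0.00951). slc12a2 (NKCC1), which loads cells with chloride, had 23.6, 9.41, 18.6, 26.3 and 21.1 CPM against 0.281, 36, 0.978, 0 and 4.58 CPM and no call, with negative replicate 2 above every positive library (log2 fold change 2.15 ± 1.65, edgeR adjusted p = 0.428), though limma-voom called it higher (adjusted p = 0.0446). slc12a10.3 had 2.12, 2.31, 1.18, 2.13 and 1.1 against 7.02, 6.14, 2.69, 2.63 and 5.18 CPM (log2 fold change -1.37 ± 0.80, edgeR adjusted p = 0.278, DESeq2 Wald test 0.033); like slc26a3.1, slc26a3.2, slc9a3.1 and slc9a3.2 it is 1 of several numbered copies between which reads may be split, so its value is uncertain. Of 2 tested kinases that act on this family, oxsr1b was lower, at 13.4, 5.94, 13.1, 16.4 and 26.3 CPM against 108, 119, 132, 110.4 and 68.3 CPM (log2 fold change -2.90 ± 0.50, edgeR adjusted p = 0.0025).

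The sodium pump, which maintains the sodium gradient that drives some of these carriers, had 2 of 12 tested subunits higher and none lower. The share higher, 16.7%, was close to the 16.2% of all tested genes. The alpha subunit gene atp1a1b had 334, 274, 190.2, 295 and 273 CPM against 0.562, 69.9, 0, 0 and 0 CPM, with 99.2% of the negative level in replicate 2 (log2 fold change 7.70 ± 2.12, edgeR adjusted p = 0.0237). atp1a1a.1 had 253, 254, 392, 375 and 318 CPM against 134, 104, 272, 178 and 162 CPM (log2 fold change 0.94 ± 0.24, edgeR adjusted p = 0.018), and is also 1 of several numbered copies. Of 4 tested chaperones that bring monocarboxylate carriers to the membrane, nptnb was higher, with 124 counts against 1, a ratio of 86.4 (95% counting interval 15.2 to 3439) with edgeR adjusted p = 0.031, and bsg had 31.1 ± 7.53 against 54.2 ± 70.9 CPM (SD, n = 5) with no call (edgeR adjusted p = 0.874).

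Nucleotide sugar carriers of the slc35 family, most of which supply the Golgi and the endoplasmic reticulum, had 2 higher of 19 tested, 10.5% beside the 16.2% of all tested genes, and 17 positive fold changes. Of the 17 without an edgeR call, limma-voom called 6 (slc35b1, slc35b3, slc35b4, slc35d1a, slc35f2 and slc35g2a) and the DESeq2 Wald test 4 (slc35b2, slc35b3, slc35e4 and slc35g2a). slc35c1, which brings GDP-fucose into the Golgi, showed 7.86, 2.81, 2.65, 1.83 and 1.1 CPM in the positive group and 0 counts in the negative one, and was at least 24.6-fold higher (edgeR adjusted p = 0.0094). The orphan slc35g2b had 6.04, 3.96, 0, 5.03 and 0.629 CPM against a single count, in negative replicate 1, a ratio of 70.4 (95% counting interval 12.3 to 2806) with edgeR adjusted p = 0.025; positive replicate 3 had none. Its call was lost without negative replicates 1, 2, 3 or 4 or without positive replicate 1 (edgeR adjusted p from 0.0509 to 0.0726), and under limma-voom (adjusted p = 0.159). slc35f6, also among those 5, had 86.4, 47.5, 75.5, 110.2 and 79.3 CPM against 226, 110, 249, 59.9 and 23.1 CPM (log2 fold change -0.72 ± 0.59, edgeR adjusted p = 0.461).

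slc35f2 had 217, 123, 96.3, 95.5 and 136 CPM in AMCA-positive libraries, all above the negative ones, at 0, 0, 0, 3.0 and 52.4 CPM. Negative replicate 5 held most of the negative level, and the test did not pass (log2 fold change 4.58 ± 1.90, edgeR adjusted p = 0.116). It passed without negative replicate 5 (edgeR adjusted p = 0.00643), a choice that favours a pass, and under limma-voom (0.00496). This carrier, like slc35a4 below, was named after its values were seen. slc35a4 had narrow positive libraries, at 37, 36.8, 40.5, 38.8 and 37 CPM, each below every negative one, at 199, 64.7, 52.3, 49.2 and 74.5 CPM, and an edgeR adjusted p = 0.134.

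Fatty acid and acetyl-CoA carriers had 2 higher of 4 tested. slc27a1b, which takes up long-chain fatty acids and activates them, had 6.04, 1.16, 0.147, 7.46 and 8.5 CPM in AMCA-positive libraries against a single count in negative replicate 3, which lay above positive replicate 3, a ratio of 105 (95% counting interval 18.6 to 4182) with edgeR adjusted p = 0.0147. Its copy slc27a1a had 31.4, 14.9, 22.4, 18.1 and 19.8 CPM against 3.37, 47.6, 74.8, 38.7 and 3.98 CPM and no call (edgeR adjusted p = 0.705). slc33a1, which brings acetyl-CoA into the endoplasmic reticulum, had 4.08, 0.33, 12.2, 11 and 0.944 CPM against a single count in negative replicate 1, a ratio of 132 (95% counting interval 23.5 to 5255) with edgeR adjusted p = 0.0212, and its call was lost without negative replicate 3 or without positive replicate 1 (edgeR adjusted p from 0.0532 to 0.0708). Under limma-voom neither passed, with adjusted p = 0.102 for slc27a1b and 0.0662 for slc33a1. With neighbouring wells as a block slc27a1b did not pass (edgeR adjusted p = 0.0687). slc27a4 had no edgeR call (adjusted p = 0.203), though the DESeq2 Wald test called it higher (adjusted p = 0.0479).

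The single urea carrier, slc14a2, was lower. It had 17.1, 70.4, 54.8, 21 and 2.39 CPM in AMCA-negative and 0, 6.61, 0, 0.914 and 0.157 CPM in AMCA-positive libraries, so positive replicate 2 lay above negative replicate 5. The log2 fold change was -5.12 ± 1.68 with an edgeR adjusted p = 0.0491, and the call was lost without negative replicates 2, 3 or 4 or without positive replicates 1, 3, 4 or 5 (edgeR adjusted p from 0.0555 to 0.126). It was also lost with neighbouring wells as a block (edgeR adjusted p = 0.053).

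The families of vitamins and choline, vesicular amines, calcium, and nucleosides gave 0 calls by edgeR, with 1 tested member, slc44a4, at an unadjusted p under 0.05. The DESeq2 Wald test called slc44a4, slc24a5 and slc8a4b, and limma-voom called slc8a2a. The choline-like carrier slc44a4 had 7.1, 3.63, 1.92, 3.65 and 0.629 CPM against 0, 1.1, 0.244, 0 and 0 CPM (log2 fold change 3.84 ± 1.28, edgeR adjusted p = 0.0518, and 0.0369 without negative replicate 2), and slc44a5b had 3.17, 23.6, 10.2, 6.55 and 9.76 against 0.281, 5.48, 0.244, 0 and 6.97 CPM (edgeR adjusted p = 0.372). For slc44a4 negative replicate 2 held the highest AMCA-negative level, so leaving it out favours a pass. The vesicular monoamine carrier slc18a2 had 12.8, 5.61, 2.36, 18.4 and 23.6 CPM against 0, 3.94, 11, 0 and 0 CPM (edgeR adjusted p = 0.443). Of 10 calcium carriers, all of the slc8 and slc24 families, 1 was tested, the sodium-calcium exchanger slc8a2a. For slc8a2a every positive library, at 7.4, 5.28, 23.9, 7.0 and 14.9 CPM, lay above every negative one, at 0, 4.38, 0, 3.94 and 0 CPM. It had no call (edgeR adjusted p = 0.289). The equilibrative nucleoside carriers slc29a2 and slc29a4 had edgeR adjusted p = 0.703 and 0.762. For slc29a4 negative replicate 5, at 44.2 CPM, lay above all 5 positive libraries, at 2.72, 8.59, 12.2, 11.4 and 6.29 CPM. Without that replicate edgeR gave adjusted p = 0.0424, but leaving it out favours a pass and no conclusion is drawn. The antisense entry slc34a2aas had 2 counts in the positive and 14 in the negative libraries, and no source used here says whether the counting used strand.

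Of the 65 carriers with counts that were not tested, 21 had no count in AMCA-negative libraries and 8 none in AMCA-positive libraries. Their highest mean was 2.65 CPM in AMCA-positive libraries (slc9a3.1) and 8.03 CPM in AMCA-negative libraries (slco1c1). Of all 174 carriers with counts, 25 had none in AMCA-negative and 8 none in AMCA-positive libraries. Over all 13723 genes with counts these numbers were 1364 and 478, so the same imbalance was seen there. Per the authors' annotation, 106 of the 183 products are placed at the plasma membrane, and 58 of these were tested. Of the 58, 12 were higher and 3 lower, where 16.2% of all tested genes were higher and 6.56% lower. Whether the location bears on the calls was not tested.

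Uneven AMCA-negative libraries recur through these values. In 36 of the 109 tested carriers a single negative library held over 80% of the negative group's CPM (33%, against 23.3% of all tested genes), and in 4 a single positive library did so in the positive group (3.67% against 0.793%). No minimum count was set, so a gene with a single count in a group meets this by construction. Examples are slc13a5a and slc16a1 in the negative group and slc5a8l in the positive group. These numbers thus mix uneven libraries with counts near 0. Log2 CPM correlated across genes, which are not independent replicates, at a median r of 0.887 between AMCA-positive and 0.677 between AMCA-negative libraries. A plate by group interaction was called for 0 of 10468 genes in edgeR; 14 carriers had an unadjusted p under 0.05, and the smallest adjusted p of a carrier was 0.331. All 14 of the 25 called carriers that could be tested on both plates had the same sign on each. The 25 were called in the fit over both plates together, which favours the same sign on each. No conclusion on the plates is drawn from this. Plate 1 alone, with 2 against 2 libraries, called 0 carriers and 63 genes in all, and plate 2 alone called 14 carriers and 1903 genes.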

How the data were processed

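RNA of sorted zebrafish pituitary cells was amplified from low input with a SMARTer kit, per the labels' protocols. The authors deposited raw counts, whole numbers per gene and library. Per the submitters' processing notes, danRer10 was the build and TopHat2 2.0.13, HTSeq, cutadapt and DESeq2 were among the tools; neither their order nor the annotation and counting settings are stated there. The authors' deposited log2 fold change and adjusted p-value columns were used only for counts of calls. The 10 deposited normalized columns were not used. Groups came from the dye label, plates from the titles. Replicate numbers follow sample order; each pool gave 1 library per group, per the labels, but which libraries share a pool is not stated, so they were not paired.

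Counts were tested in edgeR 4.0.16 (R 4.3.3) over all genes: TMM scaling, filterByExpr on the design of plate plus group, robust quasi-likelihood F test, two-sided, Benjamini-Hochberg. SE is the error implied by the F test. CPM divides each count by the TMM-adjusted library size. Where a group was at 0, folds were taken against a floor of 3 counts summed across its libraries, while 1 to 3 counts gave a ratio with an exact 95% counting interval; both cover counting error only, since amplified reads are not independent molecules. Transcript lengths and sequences were not used, so levels are not compared per length between genes. The fit was checked on simulated data. Of the 183 gene names, 182 are in the RefSeq table. Alternatives are limma 3.58.1, DESeq2 1.42.0 and those in the closing section.

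The carriers, families, partner and marker lists were chosen with earlier results of these data known. Carriers were named by rule: up to 10 per direction with the largest fitted change, at least 20 CPM in the higher group and no overlap; the 2 smallest adjusted p per family; the 5 most abundant; and a list of well-known carriers. This named 42 carriers. Named after their values were seen were the 5 called carriers outside it, slc16a9b, slco2a1, slc39a7, slc30a7, slc27a1a, slc35f2 and slc35a4, and some of those that another test called. One carrier of the list is not reported here.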

Additional observations from a re-analysis of the deposited data

Results flagged for a closer look

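Within a group of 5 libraries, 1 library stood apart from the other 4 by Dixon's criterion in 26 of 94 groups checked for the named carriers (27.7%). The criterion's 5% holds for normally distributed values, which CPM with many zeros are not, so it gives no chance share here. Groups with no count in any library could not be flagged. All 26 were high values, 18 in AMCA-negative and 8 in AMCA-positive libraries. For groups in which the other 4 libraries had no count, the criterion is met by any count in the fifth.

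Among AMCA-negative libraries, replicate 2 stood apart for slco1c1 at 39.89 CPM (next 0.281), slc4a4a at 42.74 (next 6.772), slc12a2 at 35.95 (next 4.581), slc47a2 at 1.534 (next 0.2445), slc44a4 at 1.096 (next 0.2445), and slc2a10 and slc13a5a at 0.2192 each (next 0). Replicate 1 stood apart for slc16a9a at 289.1 CPM (next 41.88), for slc16a12b at 2.529 (next 0), and for slc16a1, slc33a1, slc35g2b and slc47a1 at 0.281 each, 1 count against 0. Replicate 3 did so for the iron exporter slc40a1 at 167 CPM (next 37.37) and slc27a1b at 0.2445 (next 0), replicate 4 for slc4a2a at 0.5634 (next 0), and replicate 5 for slc29a4 at 44.21 (next 1.223) and slc13a3 at 0.1992 (next 0).

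Among AMCA-positive libraries, replicate 4 stood apart for slc16a3 at 66.84 CPM (next 20.05), slc51a at 57.25 (next 16.51), slc16a12b at 37.61 (next 14.48) and slc10a4 at 0.4568 (next 0). Replicate 1 stood apart for slc35c1 at 7.855 CPM (next 2.807), slc2a1a at 3.474 (next 0) and slc5a8l at 0.1511 (next 0), and replicate 2 for slc14a2 at 6.605 (next 0.9136).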

How the results depend on the processing

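No called carrier changed sign under any alternative that tested it. The carriers were called in the main fit on the same libraries, which favours this outcome. Against 19 higher and 6 lower carriers, the DESeq2 Wald test called 41 and 8, limma-voom 30 and 6, a filter of 10 CPM in 5 libraries 7 and 3, plate 1 alone 0 and 0, plate 2 alone 12 and 2, and neighbouring wells as a block 18 and 3. These numbers are to be read beside the calls over all genes, 1693 higher and 687 lower of 10468 in the main fit. The DESeq2 Wald test called 2927 and 920 of 11083 genes, and limma-voom 2524 and 765 of 10468. The 10 CPM filter gave 676 and 742 of 6505, and plate 1 alone 29 and 34 of 9373. Plate 2 alone gave 1411 and 492 of 9553, and the block 1516 and 461 of 10468. Leaving out each library in turn gave 13 to 23 higher and 3 to 6 lower carriers, the 3 without positive replicate 1 or 4. Over all genes, leaving out each in turn gave 1273 to 1744 higher and 488 to 749 lower. Of these 10 fits, slc22a23, slc27a1b and slc33a1 could be tested in 8, and slc35g2b and slc5a8l in 9. The losses listed for these carriers above leave out the fits that could not test them. Of 2 alternatives chosen after seeing the data, leaving out negative replicates 3 and 4, with the fewest genes, gave 18 and 3, with 9 of 25 calls lost (slc10a4, slc14a2, slc16a12b, slc22a23, slc27a1b, slc30a4, slc33a1, slc35g2b and slc47a2) and 5 others gained, and leaving out negative replicates 1 and 3 gave 19 and 6, with 7 lost and 7 gained. Over all genes, the fit without 3 and 4 gave 1506 higher and 669 lower of 11020. The fit without 1 and 3 gave 1574 and 770 of 11055. Each pool gave 1 library per group, but the labels do not say which libraries share one. Neighbouring wells, which coincide with the replicate numbers, deviated together only weakly, with correlations across genes of 0.00238 to 0.0419. Yet 5 of 10 libraries correlated best with their neighbour, so these values do not settle whether neighbours share a pool. Used as a replicate block, neighbouring wells gave no call for slc14a2, slc16a10, slc22a23, slc27a1b, slc30a4 and slc47a2. The block also called slc35f2 and slc39a7, which the main fit did not. slc14a2 was also lost with DESeq2 size factors, slc14a2 and slc16a12b with no plate term, these and slc22a23 with no filter, and slc14a2, slc16a10, slc20a1b and slc30a1a on plate 2 alone. Among the carriers named by rule, the fold change turned sign, with no test passed in either fit, for slc12a2 (-0.25), slc4a4a (-1.33) and slc9a3r1 (-0.49) on plate 1 alone, for slc29a2 (-0.59) and slc29a4 (-0.60) on plate 2 alone, for slc29a4 with no plate term (-0.15), for slc29a4 (-0.11) and slc35f6 (0.28) without negative replicates 1 and 3, and for slc4a4a (-0.18) without 3 and 4. Other carriers are not listed in full. Of these, slc16a9b turned to -2.54 on plate 1 alone and slc35b4 to -0.62 on plate 2 alone. The cause was not tested. The median log2 fold change of all genes, 0.691, was 0.847 with DESeq2 size factors, 0.947 in DESeq2, 1.64 under limma-voom, 1.7 with the block, 0.301 with no plate term and 0.132 with the 10 CPM filter. Low counts left 74 of 183 carriers untested.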
